A study of Homo sapiens with 4 samples.

Results

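The genes of the nuclear pore and of nuclear transport were picked from the expression table by gene class and symbol, as mRNA genes named NUP with a number, the karyopherins KPNA and KPNB, the importins IPO, the exportins XPO and the transportins TNPO, plus POM121, TPR, NDC1, RANBP2, RAN, SEH1L, RAE1 and AAAS. This gave 52 of the 19316 mRNA genes and of the 28198 genes in all. Of the 52 genes, 28 encode nucleoporins, the proteins that build the pore, and 24 encode the soluble transport machinery. Expression is in FPKM, which counts sequenced fragments relative to transcript length and to the size of the library, and 50 of the 52 genes averaged 1 FPKM or more across the 4 libraries. The 2 that did not were importin alpha genes: KPNA5, with at most 0.406 FPKM, and KPNA7, with at most 0.105 FPKM and no signal in either METTL3-K177Q library.

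METTL3, the methyltransferase that writes N6-methyladenosine (m6A) on mRNA, was depleted in MDA-MB-231 cells, a human triple-negative breast cancer line, and put back by lentivirus as the wild-type protein (METTL3-WT) or with glutamine in place of a lysine (METTL3-K177Q), a substitution that mimics acetylation within a nuclear localization signal. Both genotypes were given cycloheximide before lysis, the lysates were spread over a sucrose gradient, and the fractions were pooled into a sub-polysome sample, which holds mRNA with few or no ribosomes, and a polysome sample, which holds mRNA with many. Poly(A)-selected RNA was sequenced from 4 libraries, 1 for each fraction of each genotype, all labelled replicate 2. With 1 library per group analysed here there is no replicate spread, so differences are given as values without a test.

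Large molecules cross the nuclear envelope through nuclear pores, which are built from outer and inner protein rings, a transmembrane anchor, a central channel of phenylalanine-glycine (FG) repeat proteins, cytoplasmic filaments and a nuclear basket. Importin alpha binds the nuclear localization signal of a cargo and importin beta (KPNB1) carries both through the channel, while other members of the importin beta family bind cargo directly, exportins carry cargo out, and the small GTPase Ran sets the direction by its nucleotide state. METTL3 itself is a nuclear cargo, and its localization signal is the region that K177Q changes.

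FPKM summed to between 767949 and 1037594 per library, with 15773 to 16193 genes above 0. The file holds no counts; from the step between low values the libraries hold about 24800000 to 27200000 fragments, and the standard errors (SE) given below are approximate counting errors from that depth, with no part for variation between libraries. Vimentin, CD44, AXL, CAV1 and PLAUR, taken as markers of this mesenchymal line, were at 81.6 FPKM or more in all 4 libraries. Of 6 markers taken to be low, ESR1, PGR and CDH1 were at 0.632 FPKM or less, whereas ERBB2 was between 12.2 and 28.3, EPCAM between 6.20 and 9.91 and GATA3 between 2.83 and 4.95 FPKM. METTL3 mRNA in METTL3-WT cells was at 9.39 FPKM in sub-polysomes and 38.7 FPKM in polysomes, against 5.07 and 29.5 FPKM in METTL3-K177Q cells. These reads cannot tell the reconstituted from the residual endogenous transcript.

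The sequence around the start codon is shown first for 8 of the genes that the results turn on, since it is the part of each mRNA where ribosomes begin. Each run is read from the canonical GENCODE 44 transcript, 5′ to 3′, with the start codon, the base after it and the base 3 positions before it in capitals. The first base of the start codon lies on GRCh38 chromosome 12 at 102118518 for NUP37 (minus strand), 17 at 68037133 for KPNA2 (plus), 12 at 130872594 for RAN (plus), 3 at 122496565 for KPNA1 (minus), 6 at 17706387 for NUP153 (minus), 13 at 25301774 for NUP58 (plus), 22 at 45168178 for NUP50 (plus) and 7 at 72925122 for POM121 (plus). The first 4 were at least 1.5-fold enriched in polysomes of METTL3-WT cells, the last 3 were depleted from them by as much, and NUP153 lay near equality.
NUP37: ttgacatacAagATGAag
KPNA2: tgtctcataAccATGTcc
RAN: aggaacgccGcgATGGct
KPNA1: gagcctgaaAtcATGAcc
NUP153: ggaggctccGccATGGcc
NUP58: ccctggccaGacATGTcc
NUP50: aggttcgaaAacATGGcc
POM121: cgcggagccGcgATGTct

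The context most often linked to efficient initiation has a purine 3 bases before the start codon and G after it, as in ANNATGG and GNNATGG. It was carried by 32 of the 49 members whose transcript gave a full window (65.3%), against 47.4% of 10103 mRNA genes searched the same way on the transcript strand. RAN, NUP153 and NUP50 have it, whereas NUP37, KPNA2, KPNA1, NUP58 and POM121 lack the G. For the members with this context the median log2 ratio of polysome over sub-polysome FPKM in METTL3-WT cells was 0.44, and for the other 17 members it was 0.77. Over all mRNA genes searched the order was the opposite, 0.26 with the context and 0.13 without.

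Most nuclear pore and transport mRNAs had a higher FPKM in the polysome than in the sub-polysome library. FPKM is relative to each library, so the ratio compares an mRNA with the others and does not give its share in polysomes. In METTL3-WT cells their median polysome over sub-polysome ratio was 1.60-fold (log2 0.68), against 1.14-fold (log2 0.18) over the 10383 mRNA genes kept. In METTL3-K177Q cells it was 1.68-fold (log2 0.75), against 1.16-fold (log2 0.21). Of the 50 members, 26 were at least 1.5-fold higher in polysomes in METTL3-WT cells (52%, where 29.4% of all kept mRNA genes were) and 3 were at least 1.5-fold lower (background 16.0%). In METTL3-K177Q cells 30 were higher (background 31.5%) and 1 was lower (background 18.1%). All 26 members enriched in METTL3-WT cells were enriched in METTL3-K177Q cells too, joined there by NUP153, NUP210, RANBP2 and XPO1. NUP210 only just passed, at log2 0.587 (SE 0.09) against a line at 0.585. IPO11 is in both counts, but its ratio rests on how reads were divided with a readthrough transcript, as described below. Summed with that transcript, IPO11 was at log2 0.28 in METTL3-WT and 0.60 in METTL3-K177Q cells. Leaving out IPO11, POM121 and RANBP2, which share sequence with other genes, 25 and 28 of 47 members passed (29.4% and 31.5% of all kept mRNA genes). The counts depend on the scaling. With size factors from the median ratio over genes, 25 passed in each genotype (25.5% and 26.5% of all kept mRNA genes). With each library rescaled to the same total, 29 and 39 did (35.9% and 52.5%). All ratios were taken on log2(FPKM + 0.1).

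**Figure D1:**
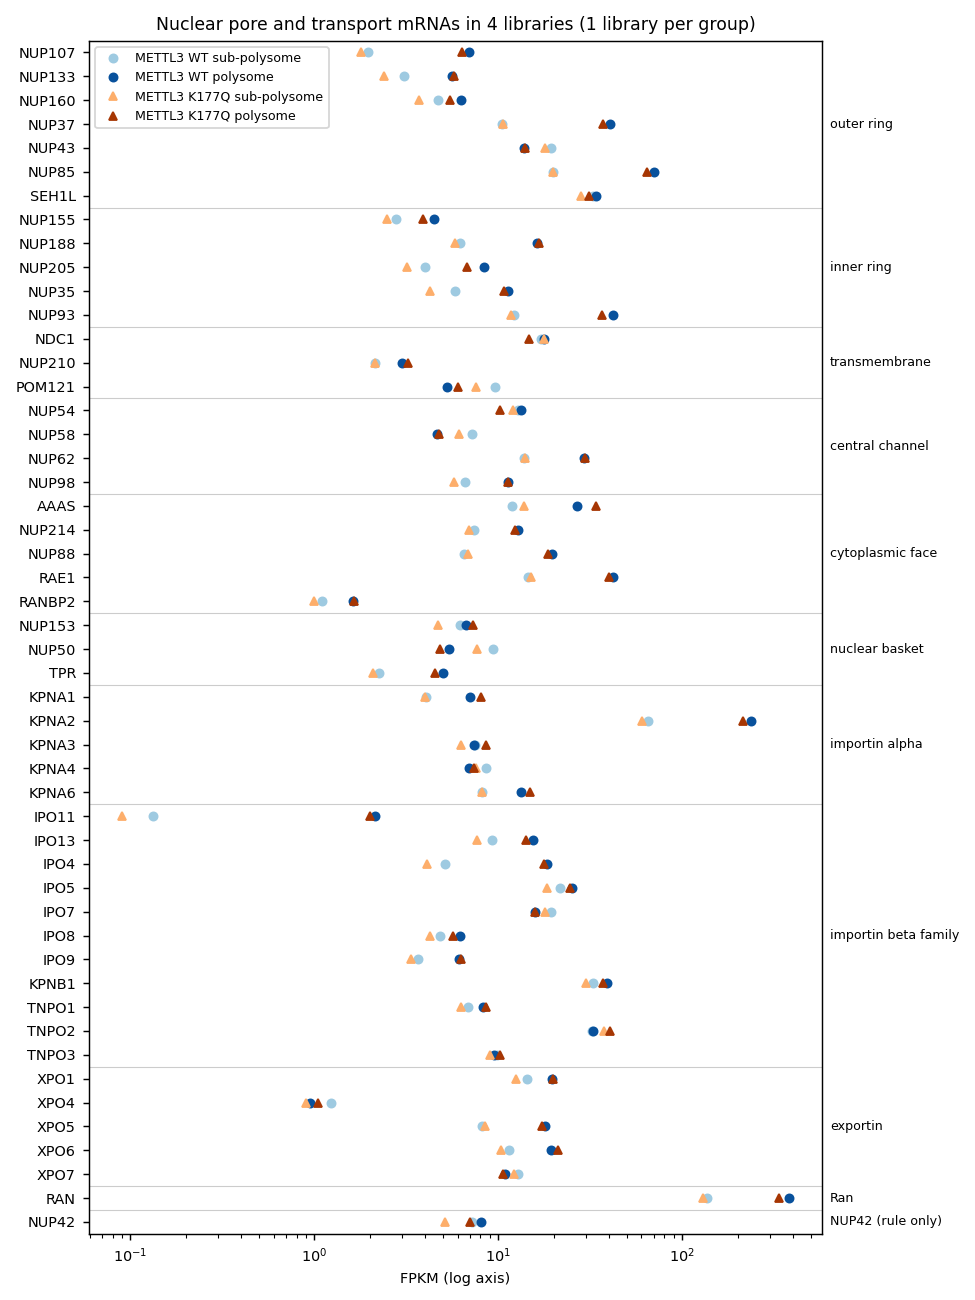
FPKM of the 50 kept genes in the 4 libraries (log axis), with circles for METTL3-WT and triangles for METTL3-K177Q, pale for sub-polysome and dark for polysome, 1 library each and no error bars. The dark symbols lie to the right of the pale ones for most genes and to the left for POM121, NUP50 and NUP58, and RAN and KPNA2 are the most abundant.

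RAN and KPNA2 carried much of the signal. RAN, the GTPase that drives directional transport, was at 136.0 FPKM in sub-polysomes and 381 FPKM in polysomes of METTL3-WT cells, and at 129 and 335 FPKM in METTL3-K177Q cells. KPNA2, the importin alpha that is high in dividing cells, was at 64.8, 236, 60.3 and 214 FPKM in the same order. Both were well above their sub-polysome level in either genotype, by 2.80-fold and 3.64-fold in METTL3-WT cells and by 2.59-fold and 3.54-fold in METTL3-K177Q cells. Together they made up 29.5% of the summed FPKM of all 52 genes in sub-polysomes and 45.0% in polysomes of METTL3-WT cells. In METTL3-K177Q cells they made up 29.6% and 42.6%. Sums over these genes are therefore set largely by this pair, and medians over genes are given in what follows.

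By place in the pore, polysome enrichment ran through the inner ring. All 5 inner ring genes (NUP93, NUP205, NUP188, NUP155 and NUP35), whose products form the core scaffold, were at least 1.5-fold higher in polysomes in both genotypes, with medians of 2.08-fold and 2.50-fold. NUP155 was the closest to the line, at log2 0.65 (SE 0.07) in METTL3-WT and 0.63 (SE 0.08) in METTL3-K177Q cells. Over all kept mRNA genes, 29.4% passed 1.5-fold in METTL3-WT and 31.5% in METTL3-K177Q cells. On the cytoplasmic face, where exported mRNA is released, 4 of 5 genes passed 1.5-fold in METTL3-WT cells and 5 of 5 in METTL3-K177Q cells. The gene that made the difference was RANBP2, at log2 0.52 (SE 0.10) and 0.67 (SE 0.11), where 1.5-fold is 0.585. The medians of the cytoplasmic face were 2.26-fold in METTL3-WT and 2.45-fold in METTL3-K177Q cells. NUP88 was at 6.51 FPKM in sub-polysomes and 19.5 FPKM in polysomes of METTL3-WT cells and 6.87 and 18.6 FPKM in METTL3-K177Q cells. In the outer ring, or Y complex, 4 of 7 passed in each genotype, and NUP85 was at 19.9 and 70.6 FPKM in METTL3-WT and at 19.9 and 64.0 FPKM in METTL3-K177Q cells. NUP37 of the same ring had a METTL3-WT ratio of 3.84-fold, while NUP43, also of that ring, was at 0.712-fold. Genes for 1 stable complex thus spanned both sides of equality.

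The 3 members depleted from polysomes in METTL3-WT cells belong to different parts of the pore. POM121, a transmembrane nucleoporin that anchors the pore, was at 9.60 FPKM in sub-polysomes and 5.27 FPKM in polysomes of METTL3-WT cells, and at 7.59 and 6.05 FPKM in METTL3-K177Q cells. NUP50, a basket protein that helps importin alpha release its cargo, was at 9.35 and 5.40 FPKM in METTL3-WT and at 7.64 and 4.80 FPKM in METTL3-K177Q cells. NUP58, an FG nucleoporin of the channel, was at 7.19 and 4.62 FPKM and at 6.13 and 4.77 FPKM. On the FPKM scale all 3 were below equality in both genotypes, but only NUP50 was still past 1.5-fold in METTL3-K177Q cells (0.633-fold). With each library rescaled to the same total, METTL3-K177Q log2 ratios rose by about 0.43, and no member was then 1.5-fold lower there. Equal totals without ribosomal protein genes raised them by about 0.21, also with no member 1.5-fold lower.

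**Figure D2:**
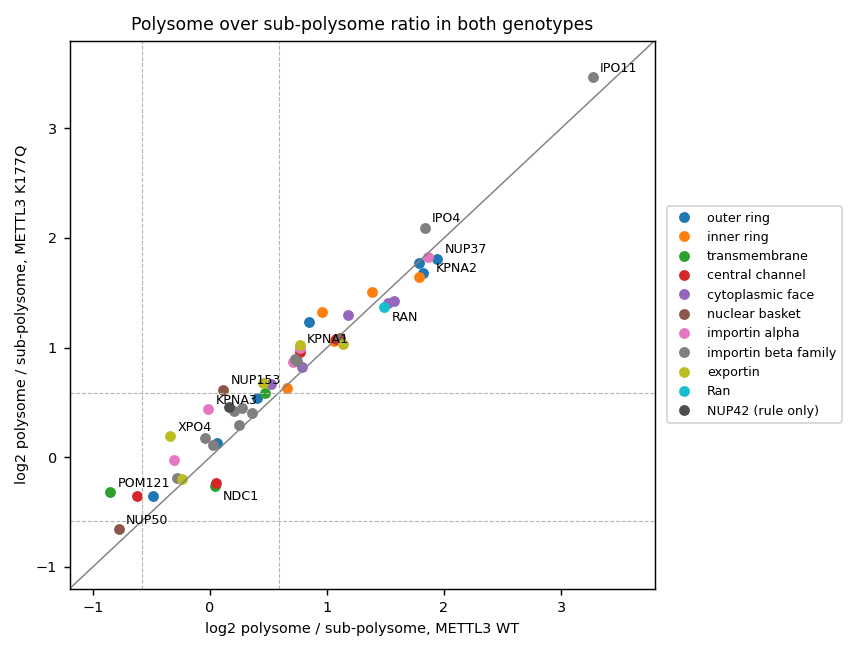
Log2 polysome over sub-polysome ratio of the 50 genes in METTL3-WT (x axis) and METTL3-K177Q cells (y axis), coloured by role, with the diagonal of equal ratios and dashed lines at 1.5-fold. The points follow the diagonal, NUP50 alone lies below the lower dashed line on both axes, and POM121, KPNA3, NUP153 and XPO4 lie above the diagonal.

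The order of the members was much the same in both genotypes. Across the 50 genes the Spearman rho between the METTL3-WT and METTL3-K177Q ratios was 0.98, against 0.90 over all kept mRNA genes; the genes share their libraries and are not independent replicates. The highest METTL3-WT ratio after IPO11 was that of NUP37, followed by KPNA2. IPO11, an import receptor, was listed at 0.132 FPKM in sub-polysomes and 2.15 FPKM in polysomes of METTL3-WT cells and at 0.0900 and 2.00 FPKM in METTL3-K177Q cells. Its ratio rests on how reads were divided with IPO11-LRRC70, a readthrough transcript that shares its exons and was listed at 7.15 to 10.7 FPKM. With both summed, the METTL3-WT log2 ratio was 0.28 in place of 3.27.

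Among importin alpha genes, which read classical localization signals, the level was shared unevenly. KPNA1 encodes importin alpha 5, the form that the study links to METTL3, and spans GRCh38 chromosome 3 from 122421902 to 122514945. It was at 4.05 FPKM in sub-polysomes and 6.97 FPKM in polysomes of METTL3-WT cells and at 3.97 and 8.02 FPKM in METTL3-K177Q cells. KPNA1 was therefore polysome-enriched in both genotypes, by 1.70-fold and 1.99-fold, at far lower FPKM than KPNA2. KPNB1, the importin beta that partners every importin alpha, was at 32.8 and 38.9 FPKM and at 30.1 and 37.0 FPKM, close to equality in both. XPO1, the exportin for leucine-rich export signals, was at 14.3 and 19.7 FPKM and at 12.4 and 19.9 FPKM, which put it at 1.37-fold in METTL3-WT and 1.60-fold in METTL3-K177Q cells.

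**Figure D3:**
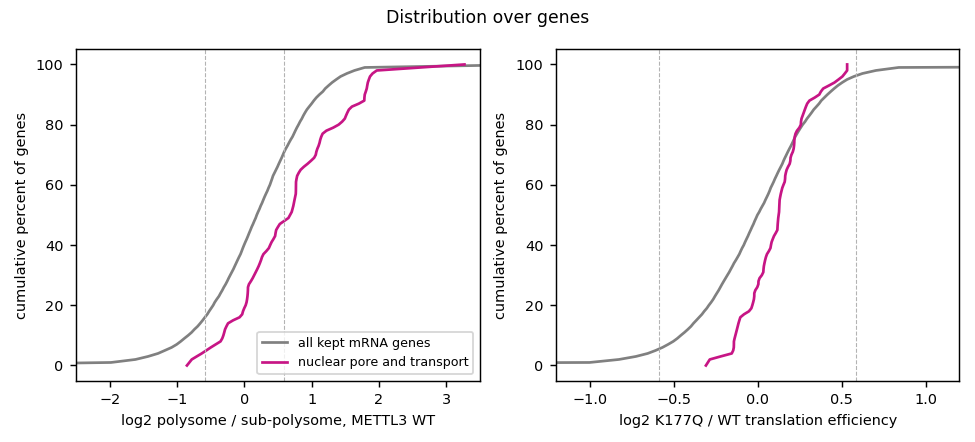
Cumulative percent of genes against the log2 polysome over sub-polysome ratio in METTL3-WT cells (left) and against the log2 ratio of translation efficiency, METTL3-K177Q over METTL3-WT (right), for the 50 nuclear pore and transport genes and the 10383 kept mRNA genes, with dashed lines at 1.5-fold. On the left the members lie to the right of all genes (medians 0.68 and 0.18), and on the right they reach neither dashed line.

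Translation efficiency, polysome over sub-polysome FPKM, was then compared between genotypes. None of the 50 members was 1.5-fold higher or lower in METTL3-K177Q cells, where 3.73% of all kept mRNA genes were higher and 5.59% lower. With each library rescaled to the same total (TPM), 7 members were 1.5-fold higher (KPNA3, NUP133, NUP153, NUP35, NUP42, POM121 and XPO4), and so were 18.2% of all kept mRNA genes. The median log2 ratio of METTL3-K177Q over METTL3-WT was 0.12 (95% interval over genes 0.04 to 0.17), against -0.00 over all kept mRNA genes. That interval treats the genes as independent and holds no variation between libraries, so it is not a test of the genotypes. Of the members 37 were above 0 (74%, against 49.9% of all) and 13 below. The ratios ran from -0.31 for NDC1 to 0.53 for POM121 and XPO4, and for 23 the approximate 95% counting interval left out 0, 18 above and 5 below (26.0% and 28.8% of all kept mRNA genes with an estimate).

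Protein length was among the features that moved with this ratio. The members encode a median of 924 amino acids, against 439 for all kept mRNA genes, and over all of those genes the ratio of translation efficiency was correlated with length (Spearman rho 0.46, 10291 genes), while within the members rho was 0.16. For transcript length rho was 0.48 over all kept mRNA genes and 0.16 within the members. For mean FPKM it was -0.31 and -0.45. With the trend on protein length over all genes removed, the members' median was -0.05, with 23 above 0 and 27 below. The direction of the members' median thus depends on whether protein length is taken into account.

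**Figure D4:**
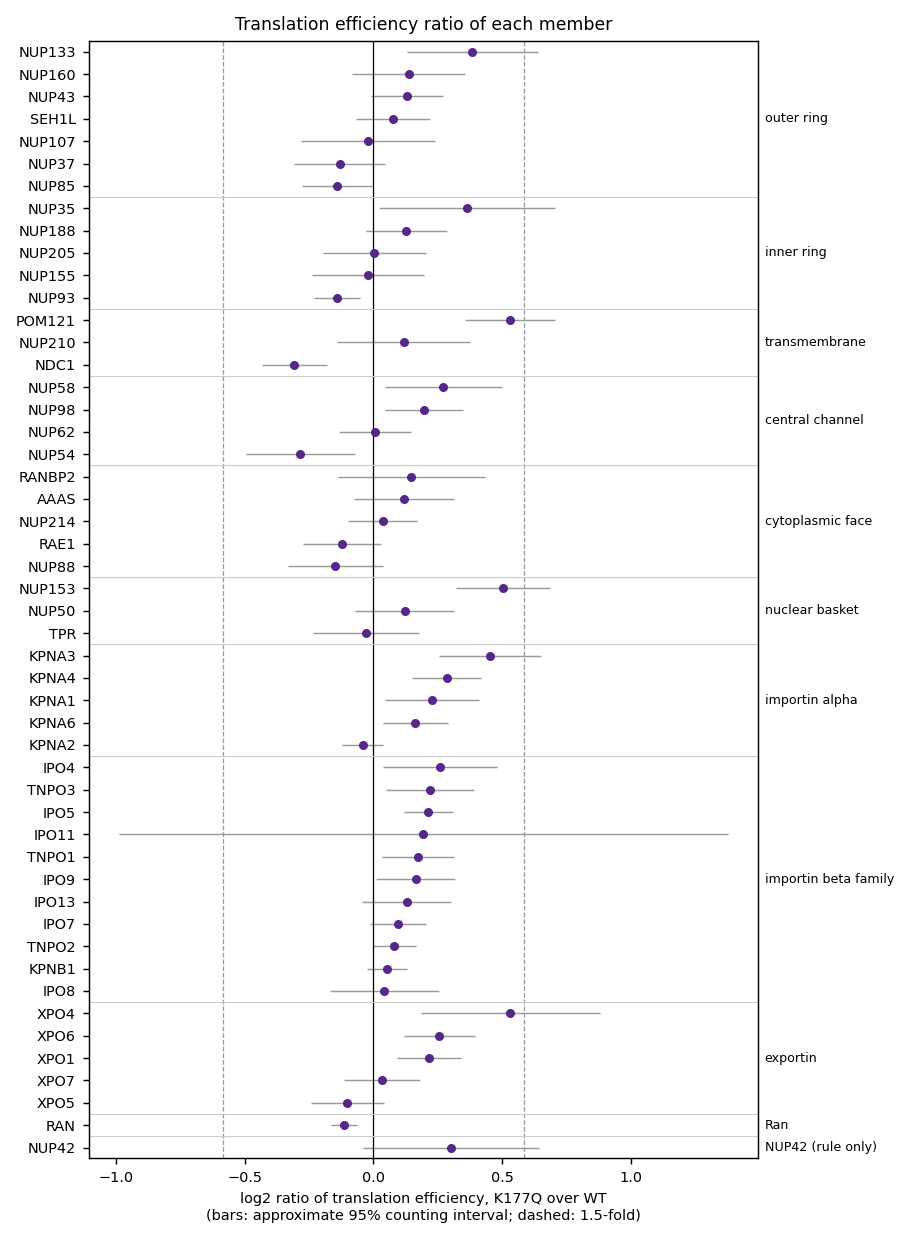
Log2 ratio of translation efficiency, METTL3-K177Q over METTL3-WT, for each of the 50 genes grouped by role, with bars of the approximate 95% counting interval (no replicate error) and dashed lines at 1.5-fold. No point passes a dashed line, NDC1 and NUP54 are lowest, POM121 and XPO4 are highest, and the bar of IPO11 is the widest.

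The members with the largest difference between genotypes came from different roles. POM121 (chromosome 7 from 72879349 to 72951440), with the FPKM given above, had a translation efficiency 1.45-fold higher in METTL3-K177Q cells (log2 0.53, SE 0.09). XPO4, an exportin of low abundance, was at 1.23 and 0.952 FPKM in METTL3-WT and at 0.900 and 1.04 FPKM in METTL3-K177Q cells, a log2 ratio of 0.53 (SE 0.18). NUP153, a basket FG nucleoporin, was at 6.17 and 6.68 FPKM in METTL3-WT and at 4.72 and 7.29 FPKM in METTL3-K177Q cells, a log2 ratio of 0.50 (SE 0.09). In each of the 3 the sub-polysome value was lower and the polysome value higher in METTL3-K177Q cells. POM121 is near-identical to POM121C, and the sum of both gave 0.52.

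KPNA3, another importin alpha, was at 7.44 FPKM in sub-polysomes and 7.36 FPKM in polysomes of METTL3-WT cells, and at 6.26 and 8.52 FPKM in METTL3-K177Q cells. Its log2 ratio was 0.45 (SE 0.10), the highest of the 5 importin alpha genes kept. NUP133 of the outer ring was at 3.06 and 5.57 FPKM and at 2.39 and 5.74 FPKM (log2 0.38, SE 0.13), and NUP35 of the inner ring was at 5.79 and 11.3 FPKM and at 4.25 and 10.8 FPKM (log2 0.36, SE 0.17). For both, the polysome values were close between genotypes and the sub-polysome values were apart.

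At the other end, NDC1, a transmembrane nucleoporin (chromosome 1 from 53765478 to 53838463), was at 17.2 and 17.7 FPKM in METTL3-WT and at 17.7 and 14.7 FPKM in METTL3-K177Q cells (log2 ratio -0.31, SE 0.06). NUP54, of the channel trimer with NUP58 and NUP62, was at 12.8 and 13.2 FPKM and at 12.1 and 10.3 FPKM (-0.28, SE 0.11). For NDC1 only the polysome value was lower in METTL3-K177Q cells, and for NUP54 both values were, the polysome value by more. The 3 proteins of that trimer were spread, with NUP58 at 0.27 and NUP62 at 0.01.

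By role, the median log2 ratio was 0.23 for the 5 importin alpha genes kept, 0.22 for the 5 exportins and 0.16 for the 11 import receptors of the importin beta family, against 0.08 for the outer ring, 0.00 for the inner ring, 0.12 for the transmembrane genes, 0.10 for the channel, 0.04 for the cytoplasmic face and 0.12 for the basket. All 11 import receptors were above 0, from 0.04 for IPO8 to 0.26 for IPO4; with the length trend removed, 5 of the 11 were. IPO11, at 0.19 with an SE of 0.60, is among them, and with a pseudocount of 1 FPKM it was at -0.01 and 10 of the 11 were above 0. IPO4 was at 5.10 and 18.5 FPKM in METTL3-WT and at 4.08 and 17.7 FPKM in METTL3-K177Q cells. Of the named core genes, KPNA1 was at 0.23 (SE 0.09), XPO1 at 0.22 (SE 0.06), KPNB1 at 0.05 (SE 0.04) and KPNA2 at -0.04 (SE 0.04). With the length trend removed, KPNA1 was at 0.17, XPO1 at 0.01, KPNB1 at -0.11 and KPNA2 at -0.09. The 5 exportins then ran from -0.32 for XPO5 to 0.32 for XPO4, with XPO7 at -0.17 and XPO6 at 0.04. RAN was at -0.11 (SE 0.03), and at 0.06 with the length trend removed. NUP42, which carries FG repeats at the cytoplasmic side and was found by its symbol, was at 0.30 (SE 0.17). RANBP2, the large protein of the cytoplasmic filaments, had 0.991 to 1.64 FPKM and a log2 ratio of 0.15.

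The remaining low ends of the roles were close together. XPO5, the exportin for microRNA precursors, was at -0.10 (SE 0.07), NUP85 at -0.14 (SE 0.07), NUP93 at -0.14 (SE 0.05), NUP88 at -0.15 (SE 0.09) and TPR, the basket filament, at -0.03 (SE 0.11). Of these, the approximate 95% counting interval left out 0 for NUP85 and NUP93.

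Within a single fraction the differences between genotypes were small, but in sub-polysomes most members were lower in METTL3-K177Q cells. In polysomes the members' median log2 ratio of METTL3-K177Q over METTL3-WT was -0.04, against -0.02 for all kept mRNA genes. Of the members 22 were above 0 (44%, against 47.0% of all) and 28 below. None was past 1.5-fold there (background 1.81% higher and 2.02% lower). In sub-polysomes the median was -0.12 (95% interval over genes -0.19 to -0.09), against -0.01 for all kept mRNA genes. This interval, too, holds no variation between libraries. In that fraction 40 members were below 0 (80%, against 51.0%) and none was past 1.5-fold (background 3.48% higher and 2.70% lower). The approximate 95% counting interval left out 0 for 28 members below 0 and 2 above (30.9% and 31.2% of all kept mRNA genes with an estimate). In polysomes it did so for 16 below and 8 above (30.9% and 25.9%). Under TPM 3 members, NUP35, NUP42 and XPO4, were past 1.5-fold in sub-polysomes, as were 10.8% of all kept mRNA genes, and the count was 3 too with equal totals without ribosomal protein genes. AAAS and TNPO2 were among the few above 0 in both fractions, with AAAS at 11.9 and 26.9 FPKM in METTL3-WT and at 13.8 and 33.9 FPKM in METTL3-K177Q cells. In 18 members (36%, against 21.1% of all) the polysome value was higher and the sub-polysome value lower in METTL3-K177Q cells. In 22 both were lower (44%, against 29.9% of all), and in 4 both were higher (8%, against 25.9%). In 6 the polysome value was lower and the sub-polysome value higher (12%, against 23.1%). FPKM is relative to each library, so a change shared by all mRNAs is not visible in it.

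**Figure D5:**
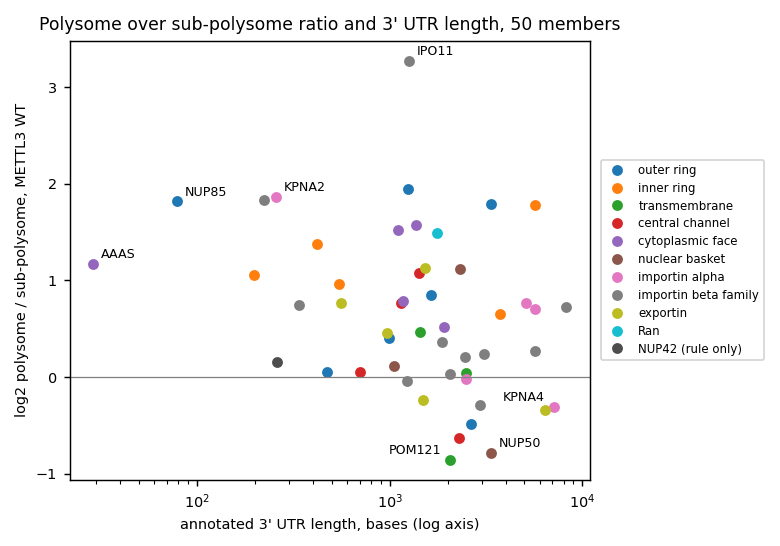
Log2 polysome over sub-polysome ratio in METTL3-WT cells against annotated 3′ UTR length (log axis) for the 50 genes, coloured by role. AAAS, NUP85 and KPNA2, with short 3′ UTRs, lie high, and POM121, NUP50 and KPNA4, with long ones, lie below 0, but NUP93 (5677 bases, log2 1.78) and NUP107 (3347 bases, log2 1.79) have long ones and lie high.

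Among features that the choice of genes did not use, the length of the 3′ UTR went with polysome enrichment. Spearman rho with the METTL3-WT ratio was -0.39 over the 50 members and -0.19 over all kept mRNA genes. Of the 25 members with a 3′ UTR up to the median of 1515.5 bases, 16 were at least 1.5-fold polysome-enriched and the median log2 ratio was 0.79. Of the 25 with a longer one, 10 were and the median was 0.27. The same split was present over all kept mRNA genes, where 37.0% and 19.2% were enriched and the medians were 0.33 and 0.03. In METTL3-K177Q cells rho was -0.38 over the members, against -0.05 over all kept mRNA genes. For protein length, rho with the METTL3-WT ratio was 0.01 over the members, against 0.23 over all kept mRNA genes. With the METTL3-K177Q ratio it was 0.03 over the members, against 0.39. UTR lengths are those of the canonical GENCODE 44 transcript and may differ from the isoform in these cells.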

How the data were processed

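The 4 libraries were the sub-polysome and polysome samples of METTL3-WT and METTL3-K177Q cells. The authors deposited gene values in FPKM; the submitters' processing notes name STAR 2.7, StringTie 2.1.5 and hg38, and the annotation is not given in the sources used here. The table's other 4 value columns, headed as replicate 1 of the same groups, belong to none of the samples listed and were left out.

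Ratios were taken on log2(FPKM + 0.1) for genes averaging 1 FPKM or more. Translation efficiency was polysome over sub-polysome. Genes were counted at 1.5-fold, and with 1 library per group no test was made. The members, roles and lists were chosen with earlier results of these data known. Genes named were METTL3, KPNA1, KPNB1, RAN and XPO1, the highest and lowest member of each role by translation efficiency ratio, the highest and lowest by METTL3-WT ratio and by mean FPKM, and pathway genes past 1.5-fold; the others named, such as KPNA4, NUP37, NUP43, NUP50, AAAS, NUP107 and TNPO2, were chosen after their values were seen.

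Counting errors took the lowest cluster of FPKM times transcript length (25 to 50, transcripts of at least 1500 bases, limits set after seeing the values) as 1 fragment. Intervals of medians are binomial over genes, taken as independent, and hold no variation between libraries. Lengths and start contexts come from canonical GENCODE 44 transcripts on GRCh38, matched by symbol. Alternatives were other pseudocounts, filters, scalings and a 2-fold threshold, and removal of a lowess trend (span 0.3) on protein length; summing or leaving out genes with shared sequence was added after seeing the data. The calculation was tested on simulated data. Python 3.11.15, matplotlib 3.10.9, statsmodels 0.14.6, pandas 2.3.3, scipy 1.17.1 and numpy 2.4.6 were used.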

Additional observations from a re-analysis of the deposited data

Results flagged for a closer look

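In 3 of the genes named by the stated rules, the METTL3-K177Q over METTL3-WT difference had opposite signs in the 2 fractions. Each difference had an approximate 95% counting interval that left out 0. The difference between fractions was not tested, since each group has 1 library. For KPNA3 the log2 ratio was -0.25 in sub-polysomes and 0.21 in polysomes. For NUP153 it was -0.38 in sub-polysomes and 0.12 in polysomes. For POM121 it was -0.34 in sub-polysomes and 0.20 in polysomes. XPO6, which those rules did not pick, had the same pattern, at -0.14 (SE 0.06) in sub-polysomes and 0.11 (SE 0.04) in polysomes. The cause was not tested.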

How the results depend on the processing

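No paired analysis was possible because every library analysed here carries replicate number 2 and each group has 1, and for the same reason no library could be left out. Rescaling to equal totals (TPM) moved the median log2 translation efficiency ratio of all kept mRNA genes by 0.30 and equal totals without ribosomal protein genes by 0.24, and the members moved with them, to medians of 0.42 and 0.36, with 7 and 6 members at least 1.5-fold higher (18.2% and 13.7% of all kept mRNA genes). The members' median relative to all genes was 0.12 under both. It could hardly change, since rescaling shifts the log2 ratios of all genes alike, apart from the pseudocount. Under TPM the sub-polysome median was -0.32, the polysome median reversed to 0.049 and the METTL3-K177Q polysome over sub-polysome median was 1.18; without ribosomal protein genes the sub-polysome median was -0.32. At a minimum of 10 FPKM the sub-polysome median was -0.075, and with no filter 1 member, KPNA7, was 1.5-fold lower. Removing the length trend reversed the translation efficiency median to -0.048. Of the named genes whose counting interval left out 0, some reversed: under TPM, NUP54 to 0.011, NUP85 to 0.16, NUP93 to 0.16 and RAN to 0.19, without ribosomal protein genes, NUP85 to 0.095, NUP93 to 0.094 and RAN to 0.12, and RAN to 0.055 with the length trend removed. Of those whose interval held 0, KPNA2, NUP88, TPR and XPO5 changed sign under both rescalings, IPO8, KPNB1 and RANBP2 with the length trend removed, and IPO11 with a pseudocount of 1. The cause of these changes was not tested beyond the construction of each setting. Over the 7 summary results, 64 of the recomputed values stayed within the interval over genes of the reported median or, for counts, within 1.5 times. Another 9 moved outside these limits and 2 reversed in sign. The 64 include the 2-fold counts, which could not change, since no member passed 1.5-fold. Depth limits the low genes: the counting SE of IPO11 was 0.60, against 0.03 for RAN.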

Other observations

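Of 25 other genes of the pathway, including the Ran regulators and the mRNA export receptor, 23 averaged 1 FPKM or more. In METTL3-WT cells 6 were at least 1.5-fold higher in polysomes and 3 lower, and in METTL3-K177Q cells 9 were higher and 5 lower, where 29.4% and 16.0%, and 31.5% and 18.1%, of all kept mRNA genes were; these shares are near the background. CSE1L, the exportin that returns importin alpha to the cytoplasm, was at 45.7 FPKM in sub-polysomes and 112.0 FPKM in polysomes of METTL3-WT cells and at 43.3 and 99.3 FPKM in METTL3-K177Q cells. CSE1L was thus higher in polysomes than in sub-polysomes in both genotypes. For translation efficiency, 10 of the 23 had a log2 ratio of METTL3-K177Q over METTL3-WT above 0 and 13 below, with a median of -0.01. Of them 1 passed 1.5-fold: NUP62CL, a paralogue of NUP62, at 1.76 and 1.71 FPKM in METTL3-WT and 1.69 and 2.87 FPKM in METTL3-K177Q cells (1.71-fold, log2 0.77, SE 0.31). CSE1L was chosen for this description after its values were seen.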
